A study of Mus musculus with 6 samples.

Results

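Maternal mRNA storage and translation control genes encode the proteins that keep transcripts of the oocyte silent and later release them for translation. The list comprised 10 genes chosen by symbol for this role, Eif4e1b, Eif4enif1, Cpeb1, Pabpc1l, Ybx2, Zar1, Zar1l, Lsm14b, Ddx6 and Patl2, of 48967 genes with exonic parts in the files. All 10 were found and all 10 passed the filter on low counts, which left 16020 genes to be tested.

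Total RNA was sequenced from 3 libraries of control and 3 libraries of delipidated 2-cell embryos collected on day 2, each made from a pool of 3 embryos. All embryos were wild-type F1 (C57Bl/10 X CBA/H) and came from hormonally stimulated donors aged 2 to 5 months; zygotes were mixed and divided at random. Delipidated zygotes were centrifuged in cytochalasin B and a hyperosmotic sucrose solution, the zona pellucida was opened with a laser and the lipid droplets (LDs) were aspirated, whereas control zygotes were only cultured, and both groups then developed in fatty acid-free KSOM. The study asked which transcripts accompany the return of LDs after their removal. Because the controls were neither centrifuged nor treated with cytochalasin B, the loss of lipid and the manipulation cannot be told apart. The 3 libraries of a group are pools drawn from 1 common collection of embryos, so p-values measure only the spread between these pools, which may be technical.

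In the growing oocyte, many transcripts are kept with short poly(A) tails in particles with RNA-binding proteins, and a complex on the cap prevents the assembly of the initiation factors. During meiotic maturation, cytoplasmic polyadenylation element (CPE) sites in the 3′ UTR direct the lengthening of the tails and the recruitment of selected transcripts for translation. After fertilization much of the maternal RNA is degraded, and in the mouse the embryo's own genome is fully activated at the 2-cell stage.

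The counts assigned to genes were 12164963, 16165958 and 12980787 in control replicates 1, 2 and 3, and 20059460, 16332103 and 14683741 in delipidated replicates 1, 2 and 3. They are sums over exonic parts, the non-overlapping pieces into which the exons of a gene are divided, and 1 read may add to several neighbouring parts, so that the sums exceed the number of reads. Levels are given as CPM, the count of a gene scaled to a common library size after TMM normalization, and fold changes as log2 of delipidated over control. Genes with at least 1 count numbered 22855, 22437 and 20582 in control and 17091, 19408 and 20158 in delipidated replicates 1, 2 and 3. All 3 delipidated libraries thus had fewer such genes than all 3 controls, and delipidated replicate 1, with the most counts, had the fewest. The part of this difference in the levels of the storage genes was not tested. The log2 CPM values of delipidated replicate 1 had a median correlation across genes of 0.857 with the other libraries, and the medians of the remaining libraries lay between 0.869 and 0.889.

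No storage gene was called between delipidated and control embryos. With edgeR, 0 of the 10 genes and 0 of 16020 genes overall (0%) had an adjusted p under 0.05 together with a log2 fold change beyond 1, and DESeq2 and limma-voom also called 0 of the 10. Over all genes limma-voom called 0, whereas DESeq2 without a filter on low counts called 9 genes higher and 40 lower, and edgeR without the filter 5 and 25. None of the 10 had an unadjusted p under 0.05 in edgeR, a level reached by 463 genes (2.89%). The adjusted p over all genes tested was 1.00 for each of the 10. Estimated fold changes were above 0 for 7 of the genes and below 0 for 3, with a median of 0.27 on the log2 scale, against a median of 0.00 and 49.96% above 0 among all genes tested. That median of the 10 genes depended on single libraries, from 0.09 without delipidated replicate 3, 0.13 without control replicate 3 and 0.19 without control replicate 2 to 0.38 without control replicate 1. For 1 of the 10 genes, Eif4enif1, every delipidated value exceeded every control value, compared with 3.81% of all genes, and for 0 of the 10 every delipidated value was the lower, compared with 5.05%. A single gene is not enough to set the list apart from that background. Each pool held 3 embryos of the same stage, but in bulk libraries fewer cells of a type and less RNA per cell cannot be told apart.

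**Figure D1:**
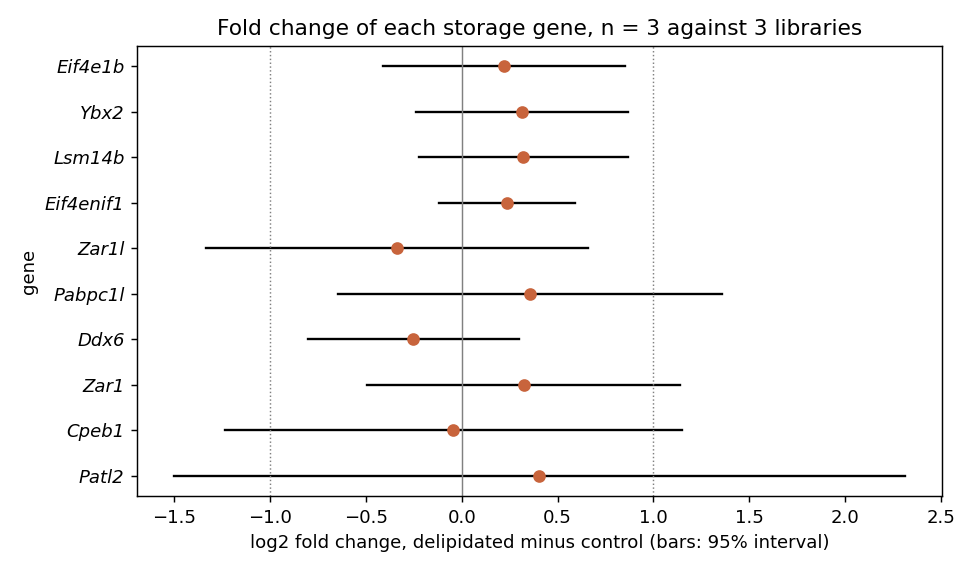
Log2 fold change of delipidated over control embryos for each of the 10 storage genes (points) with its 95% interval from edgeR (bars), n = 3 libraries in each group; dotted lines mark a log2 fold change of 1 in either direction. All 10 intervals include 0, and 5 of them lie entirely between the dotted lines.

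The cap-binding side of the machinery is represented by Eif4e1b, the oocyte form of the cap-binding protein eIF4E, and by Eif4enif1, which encodes the eIF4E-binding repressor 4E-T. Eif4e1b (ENSMUSG00000074895, GRCm38 chr13:54783998-54788459, plus strand) had 1078, 422 and 715 CPM in control replicates 1, 2 and 3 and 719, 804 and 1061 CPM in delipidated replicates 1, 2 and 3. All 3 delipidated values fell inside the range of the controls, which were spread more widely. The group means were 738 ± 329 CPM in control and 861 ± 178 CPM in delipidated embryos (SD, n = 3 each), a log2 fold change of 0.22 (SE 0.29, 95% interval -0.41 to 0.85). This estimate depended on single libraries of both groups: it was -0.06 without control replicate 2, 0.04 without delipidated replicate 3, 0.34 without delipidated replicate 1 and 0.61 without control replicate 1.

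Eif4enif1 (ENSMUSG00000020454, chr11:3202392-3244588, plus strand) had 513, 483 and 434 CPM in control and 548, 575 and 562 CPM in delipidated libraries. It was the least variable of the 10 genes, with a coefficient of variation of 8.35% among controls and 2.42% among delipidated libraries, and the groups did not overlap. The means were 477 ± 39.8 and 562 ± 13.6 CPM (SD, n = 3 each), and the log2 fold change was 0.24 (SE 0.16, 95% interval -0.12 to 0.59), so that an increase of more than 1.51-fold lay outside the interval. An exact two-sided permutation test gave p = 0.1, the smallest value that 3 against 3 libraries allow. The fold change ranged from 0.17 to 0.30 when each library was left out in turn.

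Set against its somatic counterpart, Eif4e1b was the more abundant cap-binding transcript on a scale of CPM per kilobase of exonic parts. Eif4e had 104 ± 1.31 CPM per kilobase in control and 98.7 ± 12.7 in delipidated embryos, against 327 ± 146 and 382 ± 79.1 for Eif4e1b (SD, n = 3 each). The ratio of Eif4e1b to Eif4e was 4.58, 1.77 and 3.07 in control replicates 1, 2 and 3 and 2.86, 3.62 and 5.46 in delipidated replicates 1, 2 and 3. Eif4e1b was thus the higher of the pair in each of the 6 libraries, and the groups overlapped. On the longest exonic part of each gene the ratio lay between 3.28 and 12.4, but those parts were far below the whole genes. They had 20.1 ± 10.45 CPM per kilobase for Eif4e1b and 2.76 ± 0.539 for Eif4e in control embryos (SD, n = 3 each). For Eif4e1b this is the part of 975 bases at chr13:54787477-54788451, so the order on these parts says little about the whole genes. Over Eif4e3, another member of the family, the ratio lay between 4.90 and 13.5. On the longest parts, again with that stretch of Eif4e1b, it lay between 0.344 and 1.36, so the order depends on which parts are counted.

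The counts of Eif4e1b were uneven along its 27 exonic parts. A part of a single base, chr13:54787376-54787376, held 567, 241 and 498 counts in control and 653, 574 and 666 in delipidated libraries, which shows how many reads cross even the shortest part. The part at chr13:54787470-54787476 held 139, 54 and 93 counts in control and 54, 162 and 87 in delipidated libraries. Only 3.08% of all counts of the gene lay beyond chr13:54787469, although those last 3 parts make up 990 of its 2255 bases. This is not a share of reads, because 1 read may count on several of the short parts before that base. The part of 85 bases that ends there held 612, 263 and 520 counts in control and 691, 653 and 728 in delipidated libraries. The annotated coding transcript Eif4e1b-203 ends at chr13:54787469, and the longer form Eif4e1b-201 continues to chr13:54788451. The part counts do not show at which base coverage drops within this stretch.

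Cpeb1 and Pabpc1l belong to the machinery that acts on the tail: Cpeb1 encodes the protein that binds CPE sites, and Pabpc1l encodes the embryonic poly(A)-binding protein. Cpeb1 (ENSMUSG00000025586, chr7:81347026-81455465, minus strand) had 36.8, 11.7 and 16.95 CPM in control and 9.13, 24.1 and 30.2 CPM in delipidated libraries. Each group held high and low libraries and the groups overlapped over most of their range. The means were 21.8 ± 13.2 and 21.2 ± 10.9 CPM (SD, n = 3 each), and the log2 fold change was -0.04 (SE 0.54, 95% interval -1.23 to 1.15). Its sign turned without control replicate 1 (0.57) and without delipidated replicate 1 (0.32), and it was -0.39 without delipidated replicate 3. The library with the lowest value, delipidated replicate 1, had counts on only 5 of the 30 parts of Cpeb1, against 13 to 20 parts in the other libraries. In that library the 12 parts from chr7:81357305-81357418 to chr7:81349321-81349601 held 0 counts together, whereas they held 243, 61 and 12 counts in control and 145 and 108 in delipidated replicates 2 and 3.

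Pabpc1l (ENSMUSG00000054582, chr2:164025450-164050538, plus strand) had 50.1, 27.7 and 15.7 CPM in control and 31.6, 29.1 and 59.1 CPM in delipidated libraries. Control replicate 3 was the lowest and delipidated replicate 3 the highest, and the groups overlapped. Mean levels of 31.2 ± 17.5 and 39.9 ± 16.6 CPM (SD, n = 3 each) gave a log2 fold change of 0.36 (SE 0.46, 95% interval -0.64 to 1.36). The direction was not stable: the value was -0.04 without delipidated replicate 3, 0.04 without control replicate 3, 0.89 without control replicate 1 and -0.57 when the part with the highest mean count replaced the sum over parts. Coverage also differed between libraries. The first 7 of the 21 parts held 59.9%, 65.1% and 88.4% of the counts in control and 39.1%, 70.7% and 47.1% in delipidated replicates 1, 2 and 3, and control replicate 3 had counts on only 8 parts.

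Each gene was set beside its paralogues per kilobase. The ratio of Cpeb1 to Cpeb2 lay between 0.355 and 3.17 and that to Cpeb3 between 0.371 and 1.61 over the 6 libraries, so that neither was the higher throughout. Cpeb1 stood at 0.200 ± 0.0903 of the level of Cpeb4 per kilobase in control and 0.185 ± 0.0869 in delipidated embryos (SD, n = 3 each). Pabpc1l stood at 0.102 ± 0.0823 of the level of Pabpc1 in control and 0.145 ± 0.104 in delipidated embryos. The ratios to Cpeb4 and Pabpc1 did not exceed 0.304 in any of the 6 libraries. On the longest exonic parts, Cpeb1 was at 0.200 to 0.682 of Cpeb4. Those of Pabpc1l and Pabpc1 were nearly empty, at 1.39 ± 1.20 and 0.967 ± 0.526 CPM per kilobase in control embryos (SD, n = 3 each). That of Pabpc1l held 9, 13 and 0 counts in control and 0, 0 and 6 in delipidated libraries. Their ratio of 0 to 4.29, with Pabpc1l higher in 3 of the 6 libraries, therefore says little about the order of these genes. These are levels of RNA and not of protein.

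Ybx2, Zar1 and Zar1l encode proteins that package maternal transcripts: Ybx2 encodes MSY2, an abundant cold-shock domain protein of the germ line, and the ZAR proteins bind the 3′ UTRs of stored transcripts. Ybx2 (ENSMUSG00000018554, chr11:69935796-69941605, plus strand) had 177, 120 and 202 CPM in control and 167, 197 and 256 CPM in delipidated libraries. Control replicate 2 was the lowest and delipidated replicate 3 the highest, and the remaining libraries of both groups were interleaved. The means were 166 ± 42.2 and 207 ± 45.1 CPM (SD, n = 3 each), a log2 fold change of 0.31 (SE 0.25, 95% interval -0.24 to 0.87). It was 0.13 without control replicate 2 or without delipidated replicate 3 and 0.48 without control replicate 3. Per kilobase, Ybx2 was 1.58 to 2.21 times as high as its paralogue Ybx3 and 0.111 to 0.220 times as high as Ybx1 across the 6 libraries. On the longest exonic part the ratio to Ybx1 was 2.58 to 27.4, so the order of Ybx2 and Ybx1 depends on which parts are counted.

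Zar1 (ENSMUSG00000063935, chr5:72576806-72581254, minus strand) had 22.4, 24.2 and 15.8 CPM in control and 25.0, 31.6 and 21.5 CPM in delipidated libraries. The lowest delipidated library lay below the highest control libraries, so the groups overlapped. The log2 fold change was 0.32 (SE 0.37, 95% interval -0.49 to 1.14), from means of 20.8 ± 4.41 and 26.0 ± 5.13 CPM (SD, n = 3 each). It was 0.16 without control replicate 3 or without delipidated replicate 2, and at most 0.45 with another library left out. The first 2 of its 10 parts, which make up 971 of the 1429 bases of the transcript Zar1-201, held 72.4% of the counts, and 4 parts had 0 counts in all 6 libraries. Among these were the longest part, 868 bases at chr5:72577404-72578271, and the part at chr5:72576806-72577113 beyond the end of that transcript.

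Zar1l (ENSMUSG00000056586, chr5:150507055-150518164, minus strand) had 12.7, 27.8 and 18.2 CPM in control and 18.8, 17.4 and 10.2 CPM in delipidated libraries. Control replicate 2, the lowest library for Eif4e1b and Ybx2, was the highest for Zar1l, and the groups overlapped. The means were 19.6 ± 7.64 and 15.5 ± 4.65 CPM (SD, n = 3 each), a log2 fold change of -0.34 (SE 0.45, 95% interval -1.33 to 0.66). Without control replicate 2 the estimate was 0.00, without delipidated replicate 3 it was -0.11, and without control replicate 1 it was -0.56. Of the 4 parts of Zar1l, the first, chr5:150517587-150518164, held 56.7% of the counts and the last, chr5:150507055-150507203, held 4.34%.

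Lsm14b, Ddx6 and Patl2 encode components of repressed ribonucleoprotein particles: LSM14B is an RNA-binding protein of the oocyte, DDX6 a DEAD-box RNA helicase that is also found in the P-bodies of somatic cells, and PATL2 a relative of the decapping factor PATL1. Lsm14b (ENSMUSG00000039108, chr2:180024987-180035465, plus strand) had 314, 224 and 161 CPM in control and 258, 283 and 333 CPM in delipidated libraries. Only control replicate 1 lay among the delipidated values, the other controls being lower. The means were 233 ± 76.9 and 291 ± 38.2 CPM (SD, n = 3 each), and the log2 fold change was 0.32 (SE 0.25, 95% interval -0.22 to 0.87). It ranged from 0.11 without control replicate 3 to 0.61 without control replicate 1. Lsm14b was lower than its paralogue Lsm14a per kilobase in each library, with a ratio of 0.594 ± 0.123 in control and 0.742 ± 0.0289 in delipidated embryos (SD, n = 3 each). On the longest part of each gene Lsm14b was the higher in all 6 libraries, but that part of Lsm14a was nearly empty. It had 0.702 ± 0.372 CPM per kilobase in control and 0 in delipidated embryos, against 134 ± 21.7 for the whole gene in control. The longest parts therefore say little about the order of the pair.

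Ddx6 (ENSMUSG00000032097, chr9:44604892-44640731, plus strand) had 75.5, 96.1 and 84.1 CPM in control and 78.8, 76.0 and 60.0 CPM in delipidated libraries. Delipidated replicate 3 was the lowest of the 6, and the other delipidated libraries were close to control replicate 1, so the groups overlapped. Mean levels were 85.3 ± 10.3 and 71.6 ± 10.1 CPM (SD, n = 3 each), a log2 fold change of -0.25 (SE 0.25, 95% interval -0.80 to 0.30). It stayed below 0 under each of the 14 alternative settings, from -0.33 to -0.14. The last part, 4243 bases at chr9:44636489-44640731, held 18.2% of the counts, while 1970 bases at chr9:44631447-44633416 held 2, 9 and 0 counts in control and 0, 11 and 7 in delipidated libraries.

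Patl2 (ENSMUSG00000027233, chr2:122120108-122186189, minus strand) was the scarcest of the 10 genes, with summed counts of 23, 55 and 57 in control and 172, 41 and 24 in delipidated libraries. These corresponded to 1.94, 3.33 and 4.33 CPM in control and 8.49, 2.52 and 1.69 CPM in delipidated embryos. Delipidated replicate 1 was the highest library and delipidated replicate 3 the lowest, so the delipidated group enclosed the controls. The log2 fold change was 0.41 (SE 0.87, 95% interval -1.50 to 2.31), and it was -0.60 without delipidated replicate 1, 0.16 without control replicate 1, 0.78 without delipidated replicate 3 and 1.404 on the part with the highest mean count. The last 5 of its 18 parts held 2 counts in control replicate 3 and 0 in the other libraries. The 95% interval spans 0.353-fold to 4.97-fold, and the coefficient of variation in the delipidated group was 87.6%.

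**Figure D2:**
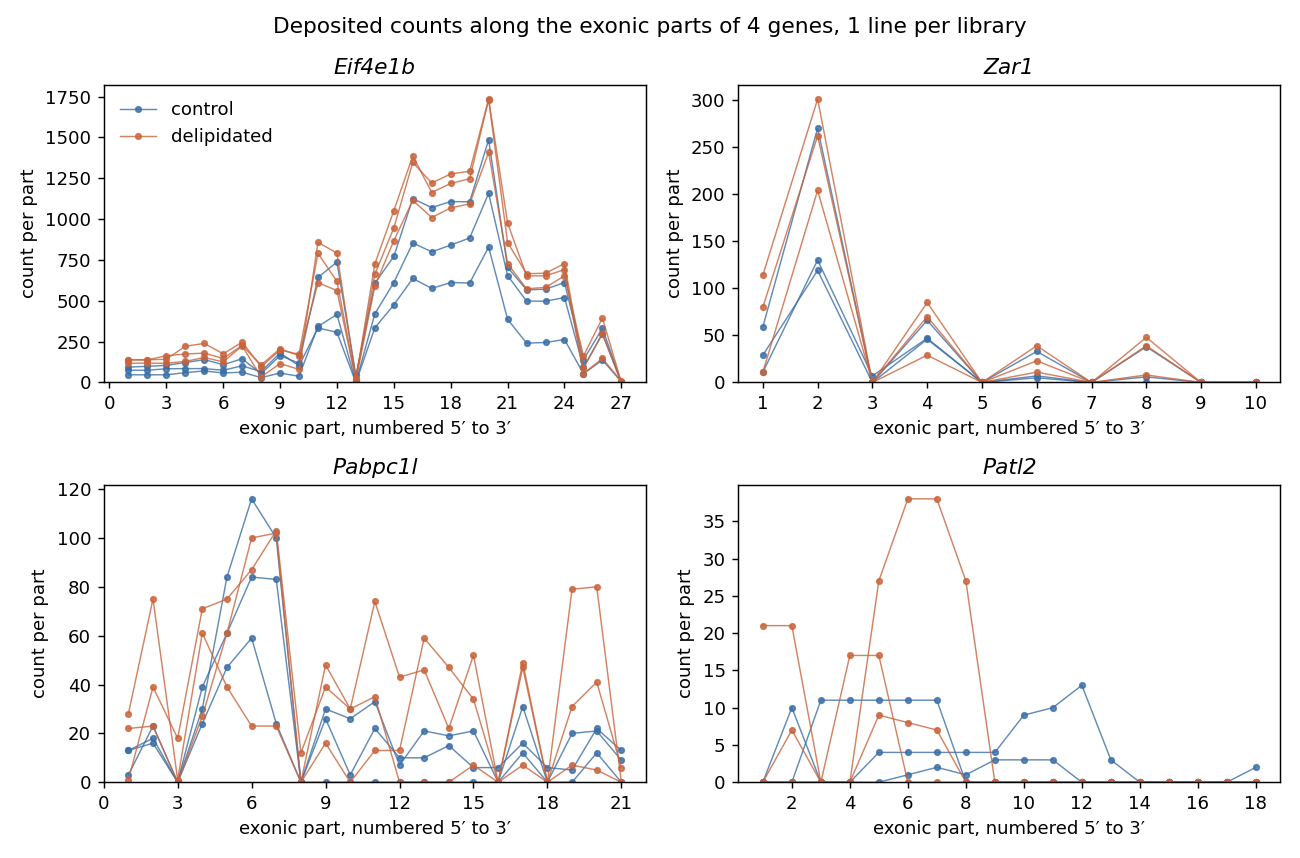
Deposited counts on each exonic part of Eif4e1b, Zar1, Pabpc1l and Patl2, numbered from the 5′ to the 3′ end; each line is 1 library, blue for control and orange for delipidated embryos (3 each). The last 3 parts of Eif4e1b hold 3.08% of its counts, 72.4% of the counts of Zar1 lie on its first 2 parts, and Patl2 has few counts that differ in position between libraries.

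Ordered by CPM per kilobase in control embryos, Eif4e1b (327 ± 146) was followed by Ybx2 (88.2 ± 22.4), Lsm14b (80.6 ± 26.6), Eif4enif1 (74.9 ± 6.25) and Zar1l (21.9 ± 8.53; SD, n = 3 each). Lower levels were found for Pabpc1l (11.4 ± 6.41), Ddx6 (10.6 ± 1.29), Zar1 (5.999 ± 1.27), Cpeb1 (5.21 ± 3.15) and Patl2 (1.31 ± 0.493; SD, n = 3 each). Delipidated embryos gave the same order for all 10 genes. Only 2 steps in it were free of overlap over the 6 libraries, that from Eif4e1b, at least 187, to Ybx2, at most 136, and that from Eif4enif1, at least 68.2, to Zar1l, at most 31.1 CPM per kilobase. The neighbours at each of the other 7 steps overlapped. Within single libraries Ddx6 was still above Zar1 in all 6, whereas the remaining overlapping steps held in 3 to 5 libraries. The length used for Zar1, 3465 bases, includes parts with 0 counts, and its transcript Zar1-201 has only 1429 bases. For Ddx6 the length used was 8035 bases and Ddx6-201 has 6065, so this step may depend on the length used. Among the 16020 genes tested, the first 4 genes lay between the 96.0 and 99.5 percentile in control embryos, 9 of the 10 lay above the median, and Patl2 lay at the 30.3 percentile. When counts on the longest exonic part replaced the sum over parts, 0 of the 10 genes kept their place. The longest part of Zar1 had 0 counts in all libraries.

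**Figure D3:**
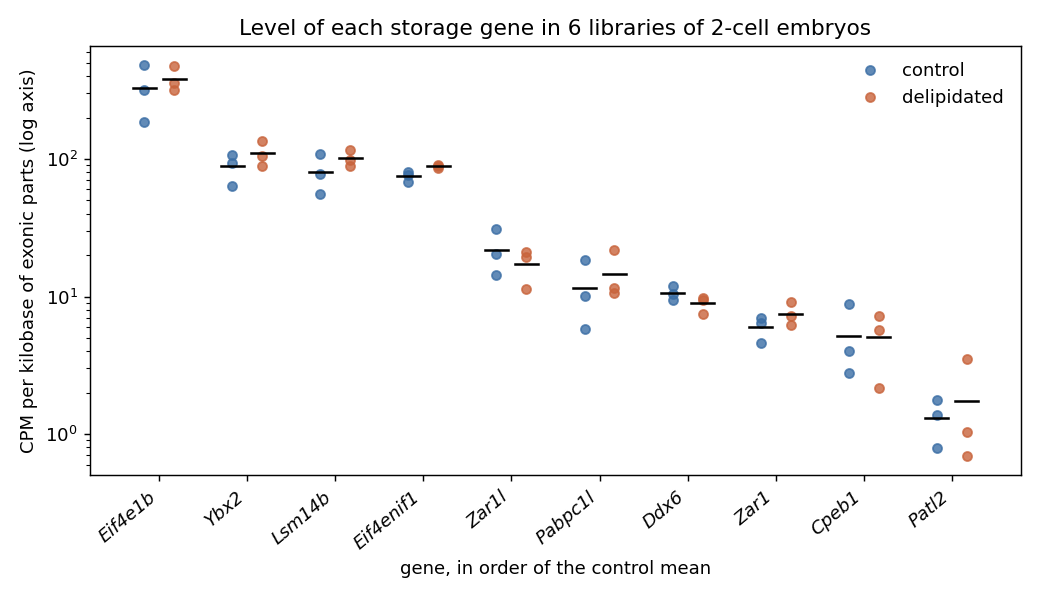
Level of the 10 storage genes in CPM per kilobase of exonic parts, on a log axis, in order of the control mean; points are libraries, blue for control and orange for delipidated embryos (3 each), and black bars are group means. Eif4e1b is the highest gene in each library, and the groups overlap for each gene but Eif4enif1.

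Together the 10 genes amounted to 2281, 1440 and 1668 CPM in control replicates 1, 2 and 3 and to 1864, 2039 and 2395 CPM in delipidated replicates 1, 2 and 3. Control replicate 2 was the lowest, and control replicate 1 was higher than all but delipidated replicate 3. Eif4e1b was the largest contributor in 5 of the 6 libraries, with 38.6% to 47.2% of the sum, and Eif4enif1 in control replicate 2, with 33.6%. The mean log2 CPM of the 10 genes was 6.12, 5.85 and 5.81 in control and 6.05, 6.08 and 6.10 in delipidated libraries. Of 15883 tested genes outside the lists, the 5 with the highest Pearson correlation with this mean over the 6 libraries were Calb1 (0.996), Ppp6r1 (0.989), Tpt1-ps3 (0.988), Gm10354 (0.987) and Ephx3 (0.987). Over so few libraries, 155 genes reached a correlation above 0.9.

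The annotated 3′ ends of the 10 genes (GENCODE M21, GRCm38) were searched for the letters of a CPE, TTTTAT or TTTTAAT, and of a poly(A) signal, AATAAA or ATTAAA, on the sense strand of 1 coding transcript per gene. In the last 100 bases, a CPE was found in 1 of the 9 genes with a 3′ UTR of at least that length, Ybx2, compared with 17.9% of 19365 coding genes. A poly(A) signal was found in 8 of the 9, compared with 78.6% of coding genes. Among 10 transcripts known to be stored and translated at maturation, such as Mos, Plat and Btg4, a CPE was found in 5. Farther from the end, CPE letters also occurred in the 3′ UTRs of Ddx6 (7 in 4250 bases), Cpeb1 (4 in 1315), Lsm14b (2 in 1177) and Eif4enif1 (1 in 496). No share over all coding genes was taken for whole 3′ UTRs, so these counts cannot be read as an excess. A match of letters is a description and does not show that a site is used.

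For 3 genes whose part counts bear on the 3′ end, 30 bases are shown 5′ to 3′ on the sense strand, with the CPE or poly(A) signal letters in capitals. They are 3′ UTR windows at chr13:54788422-54788451 for Eif4e1b (plus strand), chr11:69941532-69941561 for Ybx2 (plus strand) and chr5:72577117-72577146 for Zar1 (minus strand) of GRCm38.
Eif4e1b: ggccctttctgtatctaAATAAAcacttct
Ybx2: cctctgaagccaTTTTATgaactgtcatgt
Zar1: ataaagcctgtgAATAAAaggtattgcaaa
The signal of Eif4e1b belongs to the long form, and the 990 bases of parts beyond chr13:54787469 held 3.08% of the counts; the 30 bases at chr13:54787440-54787469, where the shorter form ends, held 0 matches to either signal. The window of Ybx2 lies in a part of 351 bases, chr11:69941226-69941576. That part held 269, 189 and 293 counts in control and 235, 260 and 420 in delipidated libraries. The 3 parts of Ybx2 beyond chr11:69941576, which span only 29 of its 1885 bases, held 0.136% of its counts. They held 7, 0 and 16 counts in control and 0 in each delipidated library. For Zar1, the part that ends with this window held 38, 0 and 6 counts in control and 39, 48 and 8 in delipidated libraries.

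Genes that work with the storage proteins were likewise without a call. Of 15 paralogues of the 10 genes, 12 were tested and 0 were called, with 7 estimates above 0, 5 below 0 and a median log2 fold change of 0.03. None had an unadjusted p under 0.05, and for none were the groups separate. Ybx1, which encodes a ubiquitous Y-box protein, was the most abundant of them per kilobase, at 563 ± 42.1 in control and 604 ± 36.1 CPM per kilobase in delipidated embryos (SD, n = 3 each). The smallest p-values belonged to Ybx3 (log2 fold change 0.41, SE 0.30) and to Pabpc4, which encodes a cytoplasmic poly(A)-binding protein (-0.20, SE 0.17).

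Of 26 genes for cytoplasmic polyadenylation and the poly(A) tail, 25 were tested and 0 were called, with 11 estimates above 0, 14 below 0 and a median log2 fold change of -0.02. Cpsf1, which encodes the largest subunit of the factor that recognizes the poly(A) signal, was the only gene of this list with an unadjusted p under 0.05. It had 23.4, 46.3 and 54.9 CPM in control and 18.2, 31.1 and 8.75 CPM in delipidated libraries, a log2 fold change of -1.10 (SE 0.49). The groups overlapped, since delipidated replicate 2 was higher than control replicate 1. Papolg, for a poly(A) polymerase, had 20.0 ± 7.29 and 35.2 ± 9.81 CPM (SD, n = 3 each), and Tent4a, for a noncanonical poly(A) polymerase, was the most abundant per kilobase at 110 ± 18.7 and 109 ± 20.4 CPM per kilobase.

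Of 19 genes for cap-dependent initiation and its inhibitors, 18 were tested and 0 were called, with 8 estimates above 0, 10 below 0 and a median of -0.02. Eif4ebp1, which encodes an inhibitor that binds eIF4E, had 5.15, 3.02 and 3.04 CPM in control and 10.3, 9.58 and 10.8 CPM in delipidated libraries. All delipidated libraries were above all controls, and the log2 fold change was 1.45 (SE 0.58) with an adjusted p of 1.00 in edgeR, its unadjusted p being under 0.05. The groups were also separate for Paip2, an inhibitor of poly(A)-binding protein, at 65.6 ± 13.3 and 79.0 ± 3.65 CPM (SD, n = 3 each). Together these are 2 of 18 genes, beside the 3.81% of all genes with every delipidated library above every control. Eif4g1, for the scaffold of the initiation complex, had 994 ± 147 and 1173 ± 155 CPM, and Paip1, for an activator of translation, was the most abundant per kilobase at 253 ± 47.0 and 269 ± 58.5 CPM per kilobase (SD, n = 3 each).

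Other proteins of stored ribonucleoproteins gave a similar result: 20 of 20 genes were tested and 0 were called, with 9 estimates above 0, 11 below 0 and a median of -0.02. Stau2, for a double-stranded RNA-binding protein, had 31.6, 26.97 and 37.6 CPM in control and 45.3, 46.8 and 72.6 CPM in delipidated libraries. The groups were separate, the log2 fold change was 0.78 (SE 0.32) and the adjusted p in edgeR was 1.00, with an unadjusted p under 0.05. Of the 20 genes, 1 was separate in this direction and 1 in the other, beside 3.81% and 5.05% of all genes. Edc3, for an enhancer of decapping, had 10.8 ± 4.70 and 6.08 ± 1.50 CPM (SD, n = 3 each), and Atxn2l was the most abundant per kilobase at 244 ± 45.3 and 261 ± 70.3 CPM per kilobase.

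The 10 transcripts known to be stored in the oocyte and translated at maturation were all tested and 0 were called, with 4 estimates above 0, 6 below 0 and a median log2 fold change of -0.05. Plat, which encodes tissue plasminogen activator, had 74.3, 68.5 and 71.8 CPM in control and 84.9, 81.6 and 93.8 CPM in delipidated libraries. The groups were separate, with a log2 fold change of 0.28 (SE 0.24). Plat was 1 of 10 genes with every delipidated library above every control, beside 3.81% of all genes. Btg4, which encodes an adaptor of the deadenylase complex, was the most abundant per kilobase at 603 ± 221 and 562 ± 184 CPM per kilobase (SD, n = 3 each). Dcp1a, for a decapping activator, had 90.6 ± 7.41 and 76.6 ± 22.4 CPM.

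Transcripts of the oocyte were present in all libraries. The 13 oocyte markers were all tested and 0 were called, with 9 estimates above 0 and 4 below 0, and they summed to 2903, 2116 and 2778 CPM in control and 2491, 2482 and 3361 CPM in delipidated libraries. Dppa3 was the most abundant at 1137 ± 141 and 1194 ± 239 CPM per kilobase, while Npm2 had 201 ± 38.2 and 265 ± 61.4 CPM and Zp2 92.9 ± 32.6 and 70.1 ± 21.8 CPM (SD, n = 3 each). Of 14 transcripts that mark genome activation at the 2-cell stage, 13 were found and tested and 0 were called, with 7 estimates above 0, 6 below 0 and a median of 0.05, and they summed to 568, 246 and 546 CPM in control and 396, 544 and 616 CPM in delipidated libraries. Usp17lb was the most abundant of them at 60.8 ± 16.1 and 94.6 ± 18.6 CPM per kilobase, with an unadjusted p under 0.05 and separate groups; it was the only 1 of the 13 with every delipidated library above every control, as were 3.81% of all genes. Tdpoz4 had 16.8 ± 13.7 and 28.0 ± 13.5 CPM, whereas Usp17la and Usp17le had log2 fold changes of -1.09 and -0.46 (SE 0.87 and 0.61); these genes belong to families of near-identical copies, between which counts are uncertain. Control replicate 2 had the lowest sum of the storage genes, of the stored transcripts, of the oocyte markers and of the activation markers.

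Markers of other cells were low. The 14 cumulus and granulosa markers summed to 8.02, 12.2 and 66.9 CPM in control and 1.63, 19.4 and 11.9 CPM in delipidated libraries; Ptx3 and Foxl2 were at 0 in all 6, and the most abundant per kilobase over the 6 libraries, Tnfaip6, had 1.94 ± 1.72 and 2.16 ± 1.73 CPM per kilobase (SD, n = 3 each). The high sum of control replicate 3 came from Cyp11a1, at 49.6 CPM there, with a control mean of 3.58 ± 6.13 CPM per kilobase (SD, n = 3), a gene singled out after its values were seen. Star had 3.69 ± 3.27 and 1.22 ± 1.61 CPM, and Kitl 1.34 ± 1.03 and 3.30 ± 5.50 CPM. The 8 leukocyte markers summed to 14.8, 10.9 and 10.5 CPM in control and 6.67, 8.66 and 6.21 CPM in delipidated libraries, with Cd74 the most abundant per kilobase at 2.41 ± 1.63 and 1.25 ± 1.59 CPM per kilobase, Coro1a at 4.42 ± 1.67 and 2.36 ± 2.61 CPM, and Ptprc at 0 in 3 libraries. The 7 markers of oviduct epithelium summed to 24.9, 37.1 and 27.9 CPM in control and 20.3, 20.8 and 16.9 CPM in delipidated libraries, with Krt18 the most abundant per kilobase at 7.62 ± 6.03 and 3.17 ± 2.10 CPM per kilobase, Dnah5 at 9.29 ± 4.54 and 5.37 ± 2.63 CPM, and Foxj1 at 0 in 4 libraries; Krt8 and Krt18 are also made by mouse embryos before implantation. The 5 sperm markers summed to at most 4.18 CPM, with Prm2 the most abundant and Tnp2 at 0 in all libraries. Only 4 of the 14 cumulus and granulosa markers, 4 of the 8 leukocyte, 5 of the 7 oviduct and 1 of the 5 sperm markers passed the filter and were tested, and 0 of those tested were called. The leukocyte and oviduct sums were lower in all delipidated libraries than in all controls, but single markers went both ways. Estimates were above 0 for 1 tested leukocyte marker, Cd52 (log2 fold change 0.87, SE 1.64), and below 0 for 3. Among oviduct markers 1 was above 0, Ovgp1 (0.83, SE 1.28), and 4 were below 0. Foxj1 had counts only in delipidated replicates 2 and 3. The part of the leukocyte and oviduct sums in the levels of the storage genes was not tested.

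For scale, Mlxipl, the ChREBP gene to which the study turns, had 64.3, 45.5 and 50.8 CPM in control and 122, 196 and 89.4 CPM in delipidated libraries. Its groups were separate, as were those of 3.81% of all genes in this direction. Its log2 fold change was 1.34 (SE 0.31), with an unadjusted p under 0.05 and an adjusted p of 1.00 in edgeR. The paper, which used DESeq2 on gene hit counts and not on sums over exonic parts, reports it as the only mRNA significantly upregulated. The edgeR value here and that call thus differ in test and in counts. The paper also reports a stronger ChREBP signal by immunofluorescence in delipidated embryos, which RNA levels do not address. Fold changes of the size of that of Mlxipl lay outside the 95% interval of 8 of the 10 storage genes, the exceptions being Pabpc1l and Patl2.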

How the data were processed

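The 6 libraries of mouse 2-cell embryos were prepared with a kit for total RNA and ribosomal RNA depletion. Per the paper and the submitters' processing notes, reads were handled with bcl2fastq 2.20, Trimmomatic 0.36, STAR 2.5.2b and featureCounts, with mm10 as the build. The files deposited by the authors hold whole-number counts of unique reads for 425461 exonic parts, with no normalization; how the parts were made is not given in the sources used here.

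Part counts were summed per Ensembl gene. Of 33309 parts under joined identifiers of overlapping genes, 27968 overlapped the exons of a single gene in GENCODE M21 (GRCm38) and were added to it; 2.49% to 2.57% of the counts of a library were left out. None of the 10 storage genes had a joined part, and 0 of their bases overlapped parts of a gene on the opposite strand. Because a read can enter several parts, the sums overstate precision, and their level per kilobase grows with the number of short parts in a gene. Symbols were matched to the annotation, except Dub1, which was not matched.

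Delipidated and control libraries were tested with the quasi-likelihood method of edgeR 4.0.16 (R 4.3.3) after TMM normalization, without covariates, on genes kept by filterByExpr (at least 10 counts, and 15 in total). A call required an adjusted p (Benjamini-Hochberg, over all genes tested) under 0.05 and an absolute log2 fold change above 1. The biological coefficient of variation common to all genes was 0.663. The 95% intervals come from the same fit. Single genes were also compared with exact two-sided permutation tests. The fit was tested on simulated counts. Alternatives used DESeq2 1.42.0, limma 3.58.1 (voom), other filters, size factors and part sums, the replicate number as a block, and each library left out in turn. Tables were handled with Python 3.11.15.

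The genes named are the 10 storage genes, from each list the genes called or otherwise the tested genes with the 2 smallest p-values plus the most abundant per kilobase, Mlxipl, and the 5 genes most correlated with the mean of the 10. Paralogues set beside a storage gene fall outside this rule and were named with their values known. So were Paip2, Cyp11a1, Usp17la, Usp17le, Cd52, Ovgp1, Krt8, Mos and markers at 0 in 3 or more libraries. The 10 genes and the lists were chosen with earlier results of these data known.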

Additional observations from a re-analysis of the deposited data

How the results depend on the processing

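The 10 storage genes had 0 calls under all alternatives, namely DESeq2 and limma-voom as tests, the size factors of DESeq2, dropping the low-count filter or raising it to a mean of 50, the replicate block, joined identifiers left out, the part with the highest mean count, each library left out and no fold change threshold. Over all genes, calls appeared only in the settings without a filter on low counts: 9 higher and 40 lower with DESeq2, and 5 higher and 25 lower with edgeR. DESeq2 as a test was run only without the filter, so its counts reflect a change of test and of filter at once. Both settings without the filter tested 30967 genes, and the median log2 fold change of all genes was then -0.17 and -0.18. With each library left out, 0 genes were called in either direction.

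Log2 fold changes kept their sign under all 14 alternatives with an estimate for Ybx2 (0.13 to 0.48), Zar1 (0.16 to 0.45), Lsm14b (0.11 to 0.61), Ddx6 (-0.33 to -0.14) and Eif4enif1 (0.17 to 0.37). With 1 library left out, Eif4e1b ranged from -0.057 (without control replicate 2) to 0.61 (without control replicate 1), Cpeb1 from -0.39 to 0.57, Pabpc1l from -0.042 to 0.89, Zar1l from -0.56 to 0.0038 (without control replicate 2) and Patl2 from -0.60 to 0.78; Cpeb1 was 0.32 without delipidated replicate 1. Without control replicate 1, Eif4e1b and Lsm14b had unadjusted p-values under 0.05 and adjusted p-values of 0.999 in edgeR. On the part with the highest mean count, Pabpc1l was at -0.57, Patl2 at 1.404, Zar1l at -0.07 and Eif4e1b at 0.12. Under the replicate block Cpeb1 was at 0.026, Patl2 at 0.07 and 0 genes were called, as without it; libraries with the same number correlated at -0.08, 0.07 and 0.04 in their deviations from the group means, so the numbers do not pair the samples. On the longest part, 0 of the 10 genes kept their place in the order of levels per kilobase. The cause of these shifts was not tested. Patl2 had the fewest counts of the 10 genes, with 23 to 172 summed counts per library.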
